A study of Mus musculus with 14 samples.

Results

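The genes described here are 7 enzymes and adaptors that act on immunoglobulin DNA after its cytosines have been deaminated: Ung, Exo1, Msh6, Pms2, Polh, Trp53bp1 and Lig4. They were taken by name from the machinery of somatic hypermutation and class switch recombination, by a rule that uses no expression value, although earlier results of these data were known when they were chosen. Every probe set annotated to 1 of these genes alone was used, which gave 19 of the 45101 probe sets on the array and 7 of the 18193 genes with such a probe set. All 7 genes had a probe set above the level used for testing, a log2 intensity of 6.43, the median of the probe sets that are not array controls. Of the 19 probe sets 16 were above it, and 3 were not: 1430225_at of Exo1, 1432421_at of Pms2 and 1459539_at of Polh.

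RNA came from splenic germinal centre B cells, sorted as B220+CD95+PNA+ from individual mice, 1 mouse per array. The KO mice were Crebbpfl/fl Cg1-Cre (n = 5, 3 of them male), the HET mice Crebbpfl/+ Cg1-Cre (n = 5, 2 male) and the WT mice Crebbp+/+ Cg1-Cre (n = 4, 1 male). All 3 groups thus carried the Cre, which is driven from the Cg1 constant region locus and recombines in activated B cells, so the deletion is limited to cells that have switched that locus on. All mice were on a mixed C57BL/6x129Sv background, were 8 to 12 weeks old, had been given sheep red blood cells as antigen on day 0 and again on day 5, and were killed on day 12. Crebbp encodes a histone acetyltransferase that serves as a coactivator for many transcription factors, and the comparisons ask which transcripts differ when 2, 1 or 0 of its alleles are floxed.

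In germinal centre B cells a cytosine deaminase turns cytosines of the immunoglobulin genes into uracils, and repair enzymes then turn those uracils into point mutations or strand breaks. Uracil can be excised by a glycosylase and read past by error-prone polymerases, or recognised as a mismatch and removed together with its neighbours, which spreads mutations to other bases. In the switch regions the breaks are held apart from resection and joined by the end-joining ligase, which exchanges the heavy chain constant region.

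Because Crebbp is recruited by the cAMP response element binding protein, the promoters of the 7 genes were searched for that protein's recognition letters. RefSeq promoter sequences (GRCm38.p6, 250 bases before to 50 after the annotated start) were given for 6 of the 7 genes, with 2 starts for Lig4, which makes 7 promoters. The whole site, TGACGTCA, was in 0 of the 7, and in 1.79% of all 32851 promoters of the same length. The site's shorter form, TGACG on either strand, was in 3 of the 7 and in 20.8% of all promoters. A whole site contains the shorter form on both strands. The 3 promoters that hold it are printed 5′ to 3′ on the strand of the gene with those 5 letters, or their reverse complement, in capitals, to show what was and was not found next to genes whose RNA is compared below: Pms2 at chr5:143909751-143910050 on the plus strand, Polh at chr17:46202592-46202891 on the minus strand and Trp53bp1 at chr2:121271358-121271657 on the minus strand.
Pms2: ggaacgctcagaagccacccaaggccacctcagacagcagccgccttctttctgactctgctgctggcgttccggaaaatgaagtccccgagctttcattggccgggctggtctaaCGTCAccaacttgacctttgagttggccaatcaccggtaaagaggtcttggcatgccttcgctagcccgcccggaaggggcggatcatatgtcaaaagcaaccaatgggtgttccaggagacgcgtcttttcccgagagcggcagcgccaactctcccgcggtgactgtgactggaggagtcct
Polh: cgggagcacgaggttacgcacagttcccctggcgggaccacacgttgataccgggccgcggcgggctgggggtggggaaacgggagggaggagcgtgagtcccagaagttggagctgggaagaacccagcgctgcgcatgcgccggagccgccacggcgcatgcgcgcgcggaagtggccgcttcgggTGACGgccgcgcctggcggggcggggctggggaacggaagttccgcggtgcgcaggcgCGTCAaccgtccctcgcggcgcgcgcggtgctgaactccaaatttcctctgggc
Trp53bp1: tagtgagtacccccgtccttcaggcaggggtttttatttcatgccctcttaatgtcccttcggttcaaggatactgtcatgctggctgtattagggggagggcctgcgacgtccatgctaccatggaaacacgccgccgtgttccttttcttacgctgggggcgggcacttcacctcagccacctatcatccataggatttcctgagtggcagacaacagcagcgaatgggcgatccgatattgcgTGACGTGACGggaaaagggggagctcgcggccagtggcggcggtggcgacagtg
Counted from the annotated start, the Pms2 match began at base -134 and the 2 Polh matches at bases -62 and -4, and the 2 Trp53bp1 matches lay next to each other across the start. Other letters were also searched on both strands. CGCATGCG, the core of the NRF1 site, was in 2 of the 7 promoters (once in 1 Lig4 promoter and at 2 places in Polh) and in 1.87% of all promoters. TTTNNCGC, an E2F site, was in 1 of the 7 (Msh6) and in 5.17% of all, and the GC box GGGCGG was in 6 of the 7 and in 35.7% of all. CCAAT was in 2 of the 7 (Pms2 and Msh6) and in 37.4% of all. These matches describe the letters in the window and say nothing of binding.

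The values are log2 intensities per probe set, normalised so that arrays share 1 distribution, and array medians lay between 6.42 and 6.46. The array of KO mouse 3 stood furthest from the rest, with a median correlation with the other arrays of 0.979 where the others had 0.984 to 0.990, and the KO against WT difference of each gene is therefore also given without it, beside the range over all leave-outs of 1 mouse. The targeted gene, Crebbp, read lower in the KO group on probe set 1436983_at, at 9.42 ± 0.10 in KO, 9.95 ± 0.17 in HET and 10.29 ± 0.08 in WT (SD), so that KO was at 55.0% of WT (limma, adjusted p = 0.00168 over all probe sets). Its brightest probe set, 1435224_at, differed by -0.41 in KO against WT (adjusted p = 0.0372 over the genes tested). Over all probe sets that set was not called (75.2% of WT, limma, adjusted p = 0.136). Nor were 1434633_at (72.0%, adjusted p = 0.0954) and 1459804_at (81.2%, adjusted p = 0.703). Whether its probe sets lie inside the deleted part was not checked here. All 8 of the germinal centre B cell markers on the array were above the testing level, while 4 of the 6 T cell markers (Cd3d, Cd3g, Cd4 and Cd28), 4 of the 5 myeloid markers, 2 of the 3 follicular dendritic cell markers and both erythroid markers on the array were below it. The 5 plasma cell markers were above it too, as were 2 of the 3 naive or follicular B cell markers on the array. Of 10 marker lists, those with a gene called in KO against WT were the light zone list (3 of 5 genes, Cd69, Nr4a1 and Egr3, all lower, with an array mean over the list of 9.78 to 10.23 in KO, 10.17 to 10.39 in HET and 10.40 to 10.47 in WT), the germinal centre list (Rgs13, lower) and the plasma cell list (Sdc1, higher). No gene was called in the other 7 lists, where only genes above the testing level could be called. These were 2 naive B, 2 T, 1 myeloid, 1 follicular dendritic, 4 dark zone and 11 dividing-cell genes. The erythroid list had 0, so nothing was tested there. The array mean of the 11 dividing-cell genes was 11.83 to 12.08 in KO, 11.89 to 11.97 in HET and 11.87 to 12.05 in WT. That of the germinal centre list was 12.02 to 12.35 in KO, 12.22 to 12.39 in HET and 12.31 to 12.40 in WT. That of the dark zone list was 11.21 to 11.74 in KO, 11.48 to 11.64 in HET and 11.53 to 11.83 in WT. KO 3 was the lowest array on both of these lists, and the list means were not tested between genotypes.

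None of the 7 genes was called in any comparison of the genotypes by the test used, a limma fit of the 14 arrays by genotype and sex that calls a gene at an adjusted p under 0.05 over 10225 genes. In KO against WT 0 of 7 were called, against 2.44% of all genes tested, which for 7 genes is too few calls to tell the genes from the background. At an unadjusted p under 0.05 there were also 0 of 7, against 13.1% of all genes. In KO against WT the fitted log2 differences of the 7 genes, each on its brightest probe set, ran from -0.11 for Ung to 0.08 for Polh. Of these differences 4 were positive and 3 negative, with a median of 0.0048 beside -0.0027 over all genes. Their median absolute difference was 0.0465, beside 0.0844 over all genes. The 95% intervals of the 7 genes lay within 0.817-fold to 1.21-fold, so changes inside these bounds were not excluded for every gene. The bounds are no limit of detection, since a related gene, Xrcc6, was not called at 1.21-fold (adjusted p = 0.196). They also hold only for the brightest sets. On the other Polh sets the difference was negative, at -0.16 on 1420988_at (95% interval 0.566-fold to 1.42-fold), -0.22 on 1450075_at and -0.08 on 1459539_at. In a bulk sample of sorted cells, fewer cells of a type and less RNA per cell cannot be told apart.

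**Figure D1:**
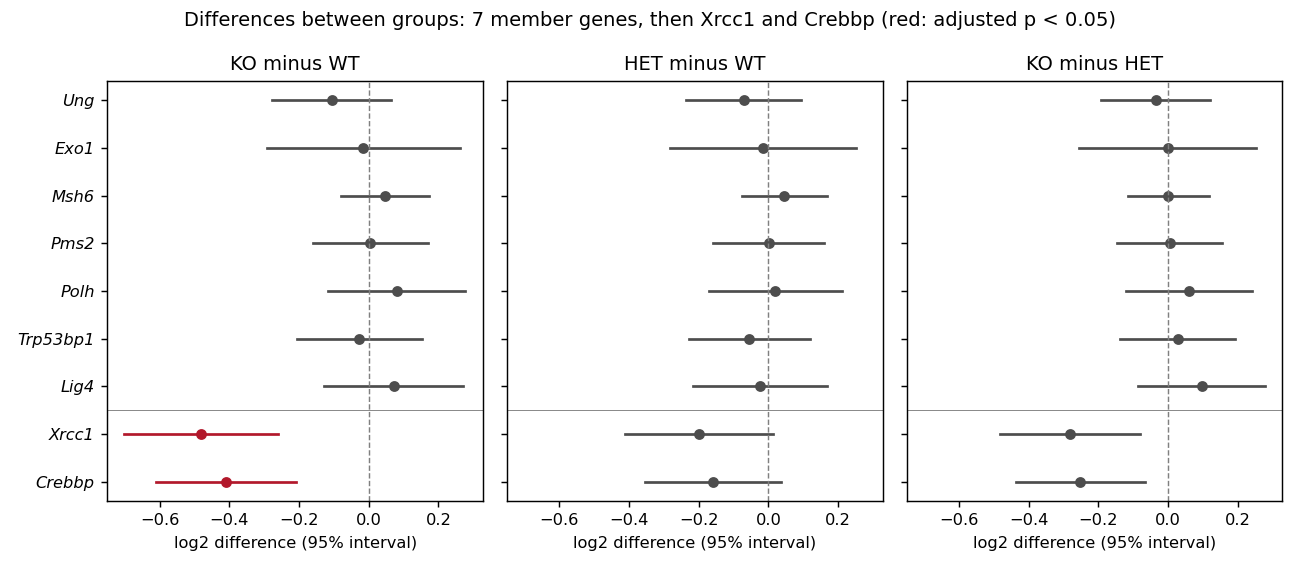
Fitted log2 differences with 95% intervals in KO minus WT, HET minus WT and KO minus HET (limma, 5 KO, 5 HET and 4 WT mice), for the 7 genes above the line and for Xrcc1 and Crebbp below it, in red where the adjusted p is under 0.05. In KO minus WT the 7 genes, each on its brightest probe set, lie between -0.11 and 0.08 with intervals that include 0. Xrcc1 is at -0.48 and Crebbp at -0.41. The other probe sets of Polh, not drawn here, have negative differences in KO minus WT.

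Ung is the glycosylase that removes uracil from DNA and opens the base excision route. Its only probe set read 11.98, 12.19, 12.22, 11.96 and 11.95 in KO mice, 12.09, 12.12, 12.25, 12.08 and 12.02 in HET mice, and 12.14, 12.24, 12.31 and 12.09 in WT mice. The 3 lowest of all 14 arrays were KO 4, KO 5 and KO 1, but KO 3 and KO 2 lay among the WT values, so the groups overlapped. The group means were 12.06 ± 0.13 in KO, 12.11 ± 0.09 in HET, 12.19 ± 0.10 in WT (SD). The difference in KO against WT was -0.11 (SE 0.08, 95% interval -0.28 to 0.06, adjusted p = 0.665), the most negative of the 7. It was -0.15 without KO 3 (adjusted p = 0.422) and -0.05 without KO 4, the ends of its range over leave-outs.

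The mismatch repair route was represented by Msh6, Exo1 and Pms2. Msh6 is a subunit of the complex that recognises the uracil:guanine mismatch. It read 12.45, 12.43, 12.51, 12.33 and 12.29 in KO mice, 12.41, 12.36, 12.45, 12.41 and 12.39 in HET mice, and 12.36, 12.34, 12.38 and 12.36 in WT mice. The 4 WT arrays lay within 0.04 of each other, and the KO arrays lay on both sides of them. Means were 12.40 ± 0.09 in KO, 12.40 ± 0.03 in HET, 12.36 ± 0.02 in WT (SD), and the KO against WT difference was 0.05 (SE 0.06, 95% interval -0.08 to 0.17, adjusted p = 0.857). It was 0.0074 without KO 3 and 0.08 without KO 4, the ends of its range over leave-outs. Msh6 had a residual SD of 0.0607, and only 4.48% of the genes tested had a lower one, where the median gene had 0.149.

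Exo1 is the exonuclease that removes the stretch of DNA around the mismatch. Its brightest probe set read 10.71, 10.88, 10.58, 11.10 and 11.23 in KO mice, 10.76, 10.91, 10.76, 10.94 and 11.08 in HET mice, and 10.76, 10.87, 10.90 and 11.05 in WT mice. KO mice held both ends of the range, with KO 3 lowest and KO 5 highest, and the HET and WT values fell between them. The means were close to each other, 10.90 ± 0.27 in KO, 10.89 ± 0.13 in HET, 10.90 ± 0.12 in WT (SD), and the KO against WT difference was -0.016 (SE 0.13, 95% interval -0.29 to 0.26, adjusted p = 0.984). Exo1 was the most variable of the 7, with a residual SD of 0.198, and 72.5% of the genes tested had a lower one. Over leave-outs the difference ran from -0.11 without KO 4 to 0.094 without KO 3 (adjusted p = 0.799 without KO 3), so single arrays set its sign.

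Pms2 carries the nicking activity of the mismatch repair complex that acts after recognition. Its brightest probe set read 9.29, 9.27, 9.59, 9.31 and 9.24 in KO mice, 9.44, 9.39, 9.31, 9.23 and 9.36 in HET mice, and 9.34, 9.34, 9.32 and 9.42 in WT mice. KO 3 was the highest of all 14 arrays and the other 4 KO arrays lay below the lowest WT array. Means were 9.34 ± 0.14 in KO, 9.34 ± 0.08 in HET, 9.35 ± 0.04 in WT (SD), with a KO against WT difference of 0.0048 (SE 0.08, 95% interval -0.16 to 0.17, adjusted p = 0.992). Over leave-outs it ran from -0.079 without KO 3 (adjusted p = 0.621) to 0.07 without WT 4. On its dimmer probe set 1436273_at the same array again stood apart, at 8.20 against 7.72 to 7.84 in the other KO mice, and that set's difference was -0.15 with KO 3 and -0.27 without it (adjusted p = 0.570 over all probe sets).

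**Figure D2:**
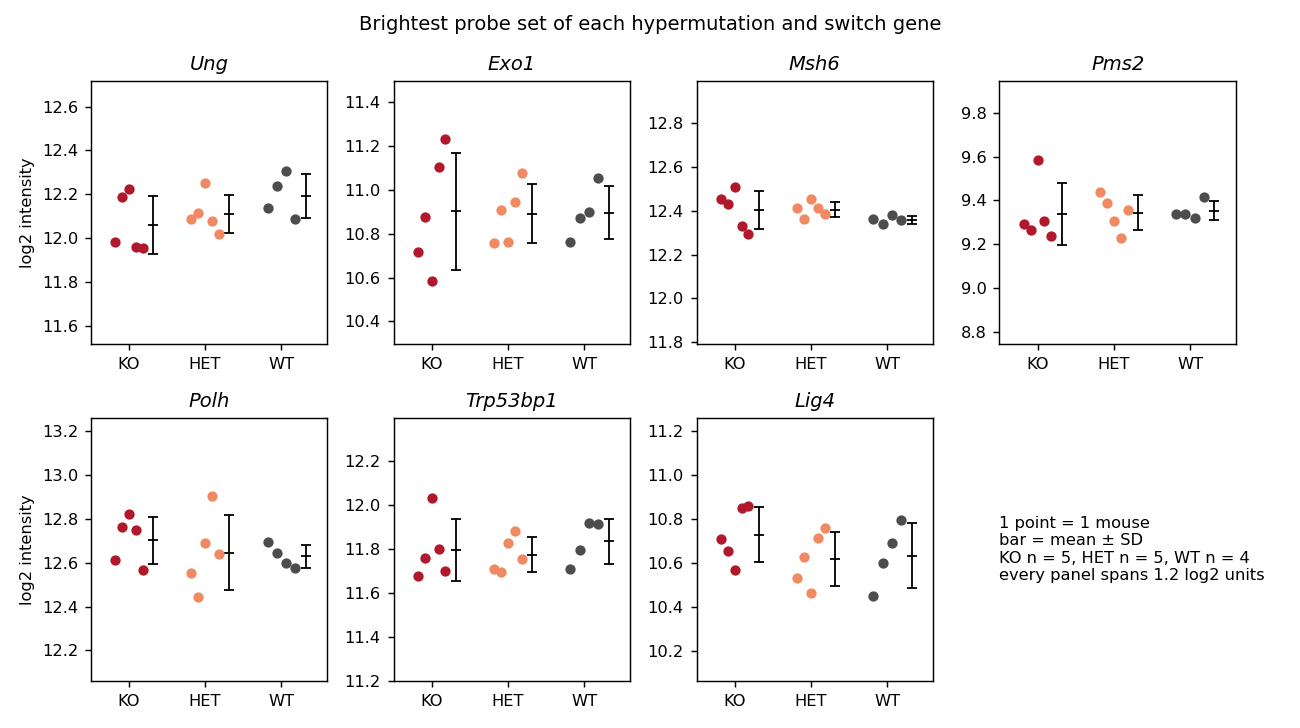
Log2 intensity of the brightest probe set of each gene, 1 point per mouse, with KO left, HET in the middle and WT right, and the group mean with its SD. The groups overlap for all 7 genes, and KO holds the lowest and the highest array of Exo1.

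Polh is the translesion polymerase that copies past damaged or missing bases and is known for the mutations at A:T pairs. The probe set that stands for it, 1447837_x_at, was its brightest, and its suffix is Affymetrix's mark for sets with probes that may match other transcripts. It read 12.61, 12.76, 12.82, 12.75 and 12.57 in KO mice, 12.55, 12.44, 12.69, 12.90 and 12.64 in HET mice, and 12.70, 12.65, 12.60 and 12.58 in WT mice. HET held the lowest and the highest array, HET 2 and HET 4, and the other groups lay between them. Means were 12.70 ± 0.11 in KO, 12.65 ± 0.17 in HET, 12.63 ± 0.05 in WT (SD), and the KO against WT difference was 0.08 (SE 0.09, 95% interval -0.12 to 0.28, adjusted p = 0.837). It was 0.04 without KO 3 and 0.11 without KO 5, the ends of its range over leave-outs.

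The other Polh probe sets told of larger differences between mice. On 1420988_at the arrays read 11.01, 11.04, 9.94, 11.68 and 11.63 in KO mice, 10.98, 11.21, 10.69, 11.19 and 11.54 in HET mice, and 11.39, 11.26, 10.89 and 11.15 in WT mice. On 1450075_at they read 8.47, 8.75, 7.76, 9.25 and 9.36 in KO mice, 8.64, 8.75, 7.91, 8.75 and 9.05 in HET mice, and 8.89, 8.92, 8.61 and 9.00 in WT mice. KO 3 was lowest on both sets and KO 4 and KO 5 were the 2 highest on both, so the KO mice alone spanned the whole range, and 96.7% and 96.4% of all probe sets had a lower residual SD than these 2. The KO against WT difference was -0.16 on 1420988_at and -0.22 on 1450075_at, and without KO 3 it was 0.25 and 0.10. Without KO 4 it was -0.43 and -0.48, and no adjusted p was under 0.05 in any of these fits. Taking the brightest Polh set without the _x_at mark for the gene, a choice made after the data were seen, thus gave -0.16 in place of 0.08, the opposite sign, and the gene was not called either way.

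Trp53bp1 is the adaptor that binds chromatin at breaks, shields their ends from resection and is needed for class switching. Its brightest probe set read 11.68, 11.76, 12.03, 11.80 and 11.70 in KO mice, 11.71, 11.70, 11.83, 11.88 and 11.75 in HET mice, and 11.71, 11.79, 11.92 and 11.92 in WT mice. KO 3 was the highest array and KO 1 the lowest, with the other arrays between. Means were 11.79 ± 0.14 in KO, 11.77 ± 0.08 in HET, 11.84 ± 0.10 in WT (SD), and the KO against WT difference was -0.03 (SE 0.08, 95% interval -0.21 to 0.15, adjusted p = 0.949). It was -0.11 without KO 3 (adjusted p = 0.529) and 0.04 without WT 4, the ends of its range over leave-outs. On its other sets the KO against WT difference was -0.04 (1426957_at), 0.0013 (1435609_at), -0.26 (1442316_x_at), -0.26 (1457812_at) and -0.11 (1446100_at). With the mean of its sets in place of the brightest it was -0.12, and none of these was called.

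Lig4 is the ligase of classical end joining, which seals the switch region breaks. Its only probe set read 10.71, 10.66, 10.57, 10.85 and 10.86 in KO mice, 10.53, 10.63, 10.47, 10.71 and 10.76 in HET mice, and 10.45, 10.60, 10.69 and 10.80 in WT mice. KO 5 and KO 4 were the 2 highest arrays and WT 1 the lowest, and the remaining arrays of the 3 groups were mixed. Means were 10.73 ± 0.13 in KO, 10.62 ± 0.12 in HET, 10.63 ± 0.15 in WT (SD), and the KO against WT difference was 0.07 (SE 0.09, 95% interval -0.13 to 0.27, adjusted p = 0.861). It was 0.12 without KO 3, and over leave-outs it ran from 0.0096 without KO 4 to 0.14 without WT 4. In KO against HET its difference was 0.10 (SE 0.08, 95% interval -0.09 to 0.28, unadjusted p = 0.275), the smallest p of the 7 genes in that comparison.

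The heterozygous mice gave no call either. In HET against WT 0 of 7 genes were called, against 0% of all genes, where 280 of 10225 genes had an unadjusted p under 0.05 and none of the 7 did. Differences ran from -0.07 for Ung to 0.05 for Msh6, with interval bounds of 0.822-fold to 1.19-fold. In KO against HET 0 of 7 were called, against 0.264% of all genes, and differences ran from -0.04 for Ung to 0.10 for Lig4, with bounds of 0.838-fold to 1.21-fold. In the trend over 0, 1 and 2 floxed alleles 0 of 7 were called, against 3.04% of all genes, with slopes from -0.05 per allele for Ung to 0.04 for Polh and a smallest adjusted p of 0.620.

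No gene had groups whose arrays did not overlap. In KO against WT this was 0 of 7 genes, against 6.51% of all genes tested. In HET against WT it was 0 of 7 against 1.5%, and in KO against HET 0 of 7 against 1.43%. At these background shares a count of 0 of 7 does not set the genes apart.

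At the level of single probe sets the picture held for all 19, the 3 below the testing level included, here with no filter and with p adjusted over 45037 probe sets. In KO against WT 0 of 19 were called, against 0.315% of all, in HET against WT 0 of 19 against 0%, in KO against HET 0 of 19 against 0% and in the trend 0 of 19 against 0.406%. Groups that did not overlap were found for 0 of 19 in each pairwise comparison, against 3.32% of all probe sets in KO against WT, 1.03% in HET against WT and 0.755% in KO against HET. KO against WT differences ran from -0.28 (Exo1 1430225_at) to 0.08, 13 of them negative and 6 positive, with a smallest adjusted p of 0.940. The intervals were wider than for the brightest sets, reaching from -0.86 to 0.50. A change inside those bounds was not excluded on every set, and the bounds are no limit of detection.

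**Figure D3:**
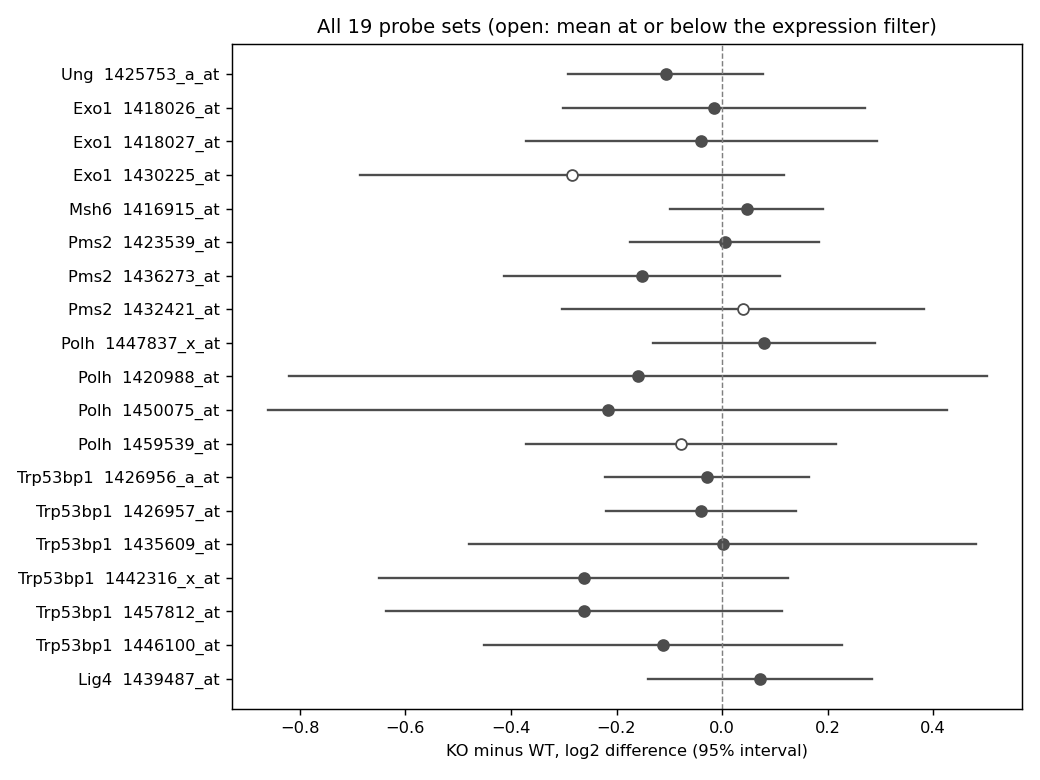
Fitted log2 difference in KO against WT for all 19 probe sets, grouped by gene, with 95% intervals (limma, 5 KO and 4 WT mice in a fit with 5 HET mice). Every interval includes 0, and the widest ones belong to Polh 1420988_at and 1450075_at.

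In KO against HET 2 of the 19 had an unadjusted p under 0.05, against 3.86% of all probe sets, and neither passed adjustment (adjusted p = 1 for both). Pms2 1432421_at, which is below the testing level, had a difference of 0.33 (unadjusted p = 0.0411). Its arrays read 6.09, 6.08, 6.10, 6.47 and 6.64 in KO mice, 5.89, 6.05, 5.48, 6.15 and 6.02 in HET mice, and 6.10, 6.01, 6.18 and 6.46 in WT mice, and HET 3 was the lowest. Trp53bp1 1457812_at had a difference of -0.35 (unadjusted p = 0.0454). Its arrays read 7.39, 6.66, 6.48, 7.02 and 7.06 in KO mice, 7.34, 6.85, 6.89, 7.78 and 7.07 in HET mice, and 7.13, 6.62, 7.0 and 7.36 in WT mice, with HET 4 highest and KO 3 lowest.

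Probe sets of 1 gene did not always follow each other from mouse to mouse. Of the 27 pairs of probe sets of 1 gene, 6 passed Benjamini-Hochberg adjustment over the 27 for Pearson's r and 4 for Spearman's rho (2-sided permutation test, 100000 resamples, 14 mice). The 4 that passed both were 1418026_at with 1418027_at of Exo1 (r = 0.94, rho = 0.93), 1423539_at with 1436273_at of Pms2 (r = 0.77, rho = 0.80), 1420988_at with 1450075_at of Polh (r = 0.93, rho = 0.91) and 1442316_x_at with 1457812_at of Trp53bp1 (r = 0.98, rho = 0.99). The Exo1, Polh and Trp53bp1 pairs each share a transcript accession and the Pms2 pair does not, while 1426956_a_at and 1426957_at of Trp53bp1 also share one and had r = 0.38, which did not pass (adjusted p = 0.447). Without the 2 arrays farthest from the median, these stayed at 0.87, 0.69, 0.90 and 0.96. The Polh set that stands for the gene had r = -0.26 with 1420988_at and r = -0.27 with 1450075_at, and neither passed. The brightest Trp53bp1 set reached its highest r, 0.59, with 1435609_at, which did not pass (adjusted p = 0.1) and was 0.16 without its 2 farthest arrays, WT 3 and KO 3. The dim Exo1 set 1430225_at ran against the other 2, with r = -0.67 (adjusted p = 0.0381) and -0.69 (adjusted p = 0.0330), but rho did not pass (adjusted p = 0.0961 and 0.104).

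**Figure D4:**
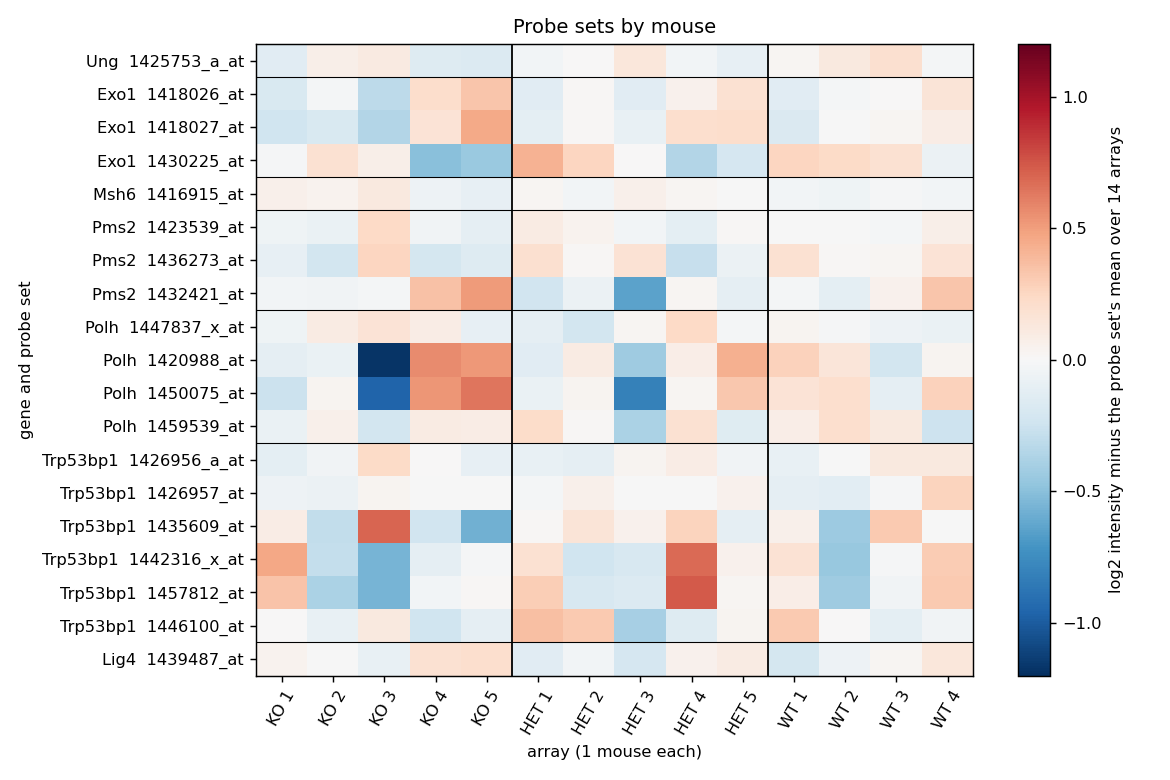
Log2 intensity of each of the 19 probe sets in each mouse, as the deviation from that set's mean over the 14 arrays, with KO mice left, HET mice in the middle and WT mice right. KO 3 is the lowest mouse on Polh 1420988_at and 1450075_at, where its log2 intensities are 9.94 and 7.76, and the highest on both brighter Pms2 sets.

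Of the 7 genes 3, Exo1, Lig4 and Msh6, were in a pair that passed the test of correlation across mice. Over the 21 pairs of genes Pearson's r ran from -0.80 to 0.81 with a median of 0.013, and 2 pairs passed adjustment over the 21, for r and for rho. Exo1 and Lig4 were high in the same mice (r = 0.81, adjusted p = 0.00651; rho = 0.81, adjusted p = 0.0185; 2-sided permutation test, 100000 resamples, 14 mice). Without KO 3 and KO 5, the 2 arrays farthest from the Exo1 median, r was 0.80, and for deviations from the group means it was 0.87 (adjusted p = 0.00063). The test shuffled all 14 mice freely. In each genotype both genes read lower in the mouse numbered 1 than in those numbered 4 or 5. An effect shared by mice of the same number was not removed, and its part in the correlations was not tested. Exo1 and Msh6 ran in opposite directions (r = -0.80, adjusted p = 0.00651; rho = -0.72, adjusted p = 0.0498), at -0.59 without the same 2 arrays and -0.72 without KO 3 alone. For deviations from the group means, pooled over the 14 mice, r was -0.86 (adjusted p = 0.00105). KO mice weigh most in it, since both genes spread most there (SD 0.27 for Exo1 and 0.09 for Msh6, against 0.12 and 0.02 in WT). The relation inside each single group was not tested.

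**Figure D5:**
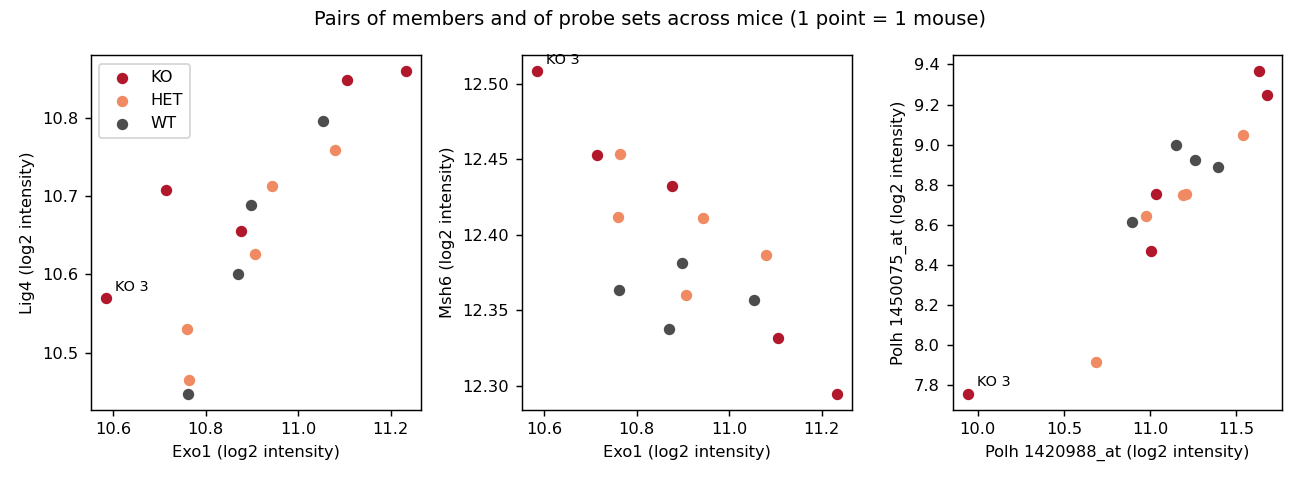
Pairs of genes and of probe sets plotted against each other as log2 intensities, 1 point per mouse, coloured by genotype (5 KO, 5 HET, 4 WT). Exo1 and Lig4 are high in the same mice (r = 0.81), Exo1 and Msh6 run in opposite directions (r = -0.80), and KO mice lie at both ends of Exo1 and of the 2 Polh sets (r = 0.93).

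Exo1 and Lig4 also moved with the mean of the 11 genes of dividing cells. Of the 7 genes tested for this, Exo1 had r = 0.67 (adjusted p = 0.0461 over the 7; permutation test) and rho = 0.63 (adjusted p = 0.09), and r was 0.75 without its 2 farthest arrays. Lig4 had r = 0.64 (adjusted p = 0.0461) and rho = 0.60 (adjusted p = 0.09), and r was 0.50 without WT 1 and HET 3. The other 5 did not pass, the nearest being Msh6 with r = -0.52 (adjusted p = 0.134). No gene of the dividing-cell list was called in KO against WT or in HET against WT, and the part of this list in the pairing of Exo1 with Lig4 was not tested.

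The gene most like each of the 7 over the 14 arrays was taken from 10218 others by Pearson's r, as a description with no p. The highest r out of so many genes is large by selection. For Ung (Zbtb39, -0.93) and Polh (Sec31a, -0.92) only, the lowest r was larger in size than the highest. Exo1 was most like Zfp207 (r = 0.98) and Cdk1 (0.96), the kinase that drives entry into mitosis. Lig4 was most like Bub1 (0.92), a kinase of the spindle checkpoint, and Ankrd50 (0.91). Msh6 was most like Taf13 (0.93) and Ndufaf1 (0.92), Pms2 like Puf60 (0.92) and Rufy1 (0.92), and Ung like Rgs3 (0.92) and Cdca7l (0.89). Trp53bp1 was most like Smap1 (0.91) and Ube2r2 (0.90), and Polh like Cstb (0.88) and Vapa (0.88). None of these 14 was called in KO against WT, against 2.44% of all genes. They were picked for following genes that were not called, so this count is no separate result.

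Around the 7 genes, 62 further genes of the same routes were tested from a list of 70 names, of which 63 had a named single-gene probe set. In KO against WT 0 were called higher and 1 was called lower, Xrcc1, against 2.44% of all genes. At an unadjusted p under 0.05 there were 4 of 62 (Xrcc1, Rfc2, Xrcc6 and Paxx), against 13.1% of all genes. Of the 62, 28 differences were positive and 34 negative, and the median was -0.013. In HET against WT 0 of 62 were called, against 0% of all genes, and in KO against HET 0 of 62, against 0.264%. In the trend 1 of 62 was called, again Xrcc1, lower, against 3.04% of all genes, so these counts do not set the list apart. By route, the calls in KO against WT were 0 of 9 for targeting of the deaminase, 1 of 11 for base excision, 0 of 9 for mismatch repair, 0 of 10 for translesion synthesis, 0 of 13 for break signalling and end protection and 0 of 10 for end joining.

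Xrcc1 is the scaffold that holds together the enzymes of base excision and single-strand break repair, downstream of Ung. Its only probe set read 10.98, 10.97, 11.26, 11.07 and 11.26 in KO mice, 11.51, 11.40, 11.28, 11.26 and 11.45 in HET mice, and 11.47, 11.40, 11.61 and 11.81 in WT mice. All 5 KO arrays were below all 4 WT arrays, and the HET arrays overlapped both groups. The difference in KO against WT was -0.48 (SE 0.10, 95% interval -0.70 to -0.26, adjusted p = 0.0254), which is 0.716-fold, and the slope was -0.24 per floxed allele (adjusted p = 0.0167). HET against WT gave -0.20 (adjusted p = 1) and KO against HET -0.28 (adjusted p = 0.449). The call was lost among the female mice alone (-0.33, adjusted p = 0.210), when only KO and WT mice were fitted (-0.49, adjusted p = 0.104), and without WT 4 (-0.36, adjusted p = 0.137), WT 3 (-0.47, adjusted p = 0.0790), KO 4 (-0.48, adjusted p = 0.0633) or KO 2 (-0.45, adjusted p = 0.0516). The part of the light zone list, of which 3 of 5 genes were called lower in KO against WT, in the Xrcc1 difference was not tested.

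The genes with the smallest p in the other routes were not called. Rfc2, a subunit of the clamp loader, had a difference of -0.21 in KO against WT (adjusted p = 0.157). It read 12.26, 12.22, 12.23, 12.14 and 12.20 in KO mice, 12.43, 12.48, 12.37, 12.17 and 12.28 in HET mice, and 12.39, 12.37, 12.44 and 12.46 in WT mice, and all KO arrays were below all WT arrays. Rfc1, the large subunit of the same loader, had -0.06 (adjusted p = 0.755). Xrcc6, which encodes the Ku70 subunit that binds broken ends, had 0.27 (adjusted p = 0.196). It read 10.33, 10.65, 10.81, 10.51 and 10.57 in KO mice, 10.43, 10.42, 10.39, 10.09 and 10.34 in HET mice, and 10.31, 10.29, 10.33 and 10.40 in WT mice, and KO 1 lay within the WT values. Paxx, an accessory factor of end joining, had -0.22 (adjusted p = 0.353).

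Lig3, the ligase that works with Xrcc1, had a difference of 0.18 (adjusted p = 0.598), opposite in sign to Xrcc1. Among the translesion polymerases Rev1 had -0.15 (adjusted p = 0.408) and Poli -0.11 (adjusted p = 0.657). In break signalling Shld2, a subunit of the shieldin complex that acts downstream of Trp53bp1, had -0.16 (adjusted p = 0.394) and Nbn, of the complex that senses breaks, -0.10 (adjusted p = 0.670). Exosc3, a subunit of the RNA exosome, had -0.14 (adjusted p = 0.805), and Rpa2, a subunit of the single-strand binding protein, -0.05 (adjusted p = 0.835).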

How the data were processed

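Per the labels' protocols, 25 ng of total RNA from sorted splenic germinal centre B cells was amplified with NuGEN reagents, and 3.75 ug of labelled cDNA was put on each of 14 Affymetrix mouse genome-wide expression arrays. The authors deposited log2 intensities, 1 per probe set and array. The submitters' processing notes name RMA, whose version is not given in the sources used here. RMA corrects background, equalises the arrays' distributions and combines each set's probes, so a shift of most genes one way would not be seen and changes of dim probe sets are understated. Arrays have no count depth, so their number limits the precision. Levels were compared between probe sets only to choose the brightest set of a gene and to apply the testing level.

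Of 45101 probe sets 64 were controls. The platform annotation named 1 gene for 34945 and several for 932, and symbols were checked through gene identifiers against RefSeq for GRCm38.p6, where 34741 matched and 0 symbols changed. A gene was represented by its brightest probe set and tested if that set's mean exceeded 6.43, the median of the 45037 other probe sets, which left 10225 genes. Genotype and sex were fitted together over the 14 arrays with limma 3.58.1 (lmFit, eBayes) in R 4.3.3, and adjusted p-values are Benjamini-Hochberg values with a threshold of 0.05. Single probe sets were fitted likewise with no filter. Correlations across mice were tested by permutation with 100000 resamples, 2-sided, where 1e-05 is the smallest p they can give. The shuffling ignored the replicate numbers. The fits were tested on simulated data.

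The genes, the list of 70 related genes and the marker lists were chosen with earlier results of these data known. Named beside the 7 genes were up to 2 related genes per route with the smallest p in KO against WT and the 2 genes most like each of the 7. The mice are separate animals, and the replicate numbers in the labels were not used to pair them in the main fits. Of 13 same-number pairs of arrays 9 had an r over 0.1 for deviations from the group means, which was not tested. The highest r of any pair from different genotypes, 0.58, was between KO 4 and HET 5, whose numbers differ. Counts from a fit with the number as a block are given below. No 2 arrays held the same values. Alternatives were the filter, the choice of probe set, the normalisation, the sex term, array weights, the eBayes settings, the groups fitted, the threshold, a replicate block and leaving out each mouse.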

Additional observations from a re-analysis of the deposited data

Results flagged for a closer look

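On the brightest Pms2 probe set, 1423539_at, the array of KO mouse 3 lay apart from the other KO mice, at 9.59 against 9.24 to 9.31. Its gap to the nearest of them was 0.807 of the group's whole range, above Dixon's critical value of 0.71 for 5 samples. On a second Pms2 set, 1436273_at, the same mouse lay apart at 8.20 against 7.72 to 7.84, with a gap of 0.741 of the range. In all 57 groups of values (19 probe sets in 3 genotypes) were looked at, and chance gives about 1 in 20, or 2.85. The 2 Pms2 sets follow each other from mouse to mouse, so they are not independent.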

How the results depend on the processing

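None of the 7 genes or 19 probe sets was called in any other setting in which they were fitted, at most 27 for a gene and 24 for a probe set. The smallest adjusted p of a gene was 0.384 in KO against WT, 0.818 in HET against WT, 0.444 in KO against HET and 0.344 in the trend, and that of a probe set was 0.570 in KO against WT. The sign turned in at least 1 setting for 4 of 7 genes in KO against WT, 5 in HET against WT, 6 in KO against HET and 4 in the trend, so no direction can be read for those. The numbers of genes called over the array depend more on the setting. In KO against WT, where 249 genes were called, there were 117 with a filter at the 75th percentile, 79 in female mice alone, 98 with only KO and WT fitted, 424 at an adjusted p under 0.10 and 130 (without WT 4) to 259 with 1 mouse left out, where leaving out WT 1, WT 2 or WT 3 gave 144, 161 or 146. In KO against HET, where 27 were called, there were 2 with no filter, 4 with the stricter filter, 0 in female mice, 72 with array weights, 5 with only those groups fitted, 48 at the looser threshold and 0 (without HET 1 or HET 5) to 22 with 1 mouse left out. Array weights gave 6 genes in HET against WT. The trend, with 311, gave 151 with the stricter filter, 107 in female mice, 198 with array weights, 508 at the looser threshold and 165 (without WT 3) to 297 with 1 mouse left out. For single probe sets KO against WT, with 142, gave 215 with no sex term, 0 in female mice, 36 with only those groups fitted, 260 at the looser threshold and 56 (without WT 4) to 159 with 1 mouse left out. The trend, with 183, gave 20 in female mice, 120 with array weights, 322 at the looser threshold and 92 (without WT 1) to 194 with 1 mouse left out. HET against WT gave 1 with the stricter filter, and KO against HET 0 to 1 with 1 mouse left out. With the replicate number as a block, there were 1 gene in HET against WT and 16 in KO against HET, and 74 probe sets in KO against WT, 1 in KO against HET and 97 in the trend. The labels do not say what a number marks. Of 13 same-number pairs of arrays 9 had a correlation of deviations from the group means over 0.1 (-0.17 to 0.38, median 0.142, against -0.056 for other pairs), and 8 of 14 arrays correlated best with their own number, a hint of a shared effect from the data and not from the design. The highest r of any pair from different genotypes, 0.58, was between KO 4 and HET 5, whose numbers differ. The cause of the differences between settings was not tested. Xrcc1 lost its call in 6 of 27 settings, run for it after seeing the data and given with its values above, and kept its sign in all. The brightest set without the _x_at mark was added after seeing the data. Dim probe sets, 4 to 5 mice a group and sex counts that differ between groups limit what can be seen.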
